A study of Homo sapiens with 2 samples.

Results

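Homologous recombination and Fanconi anemia genes encode the proteins that repair broken chromosomes from an intact sister copy and that remove cross-links between the strands of DNA. Their transcripts were compared between HCT116 colon carcinoma cells treated with LXR623, which activates the liver X receptors, and the same cells treated with the solvent. The list holds 35 genes chosen by name, and 31 of them matched a probe set by the gene symbol in the annotation of the array platform, among 23786 probe sets in all. BRCA2, FANCA, FANCD2 and RBBP8 were not analysed here. HCT116 is an established human colon carcinoma line that lacks working mismatch repair. The LXR623 group received 20 µM of the compound for 24 h, and the DMSO group received 0.1% DMSO. The label of the DMSO group gives no time, and the design text of the series gives 24 h for both groups. No DMSO percentage is given for the LXR623 group. By the sample labels, cultures of either group were grown in RPMI with 10% FBS and treated in RPMI with 1.5% FBS, whereas the methods of the study name DMEM as the medium of HCT116 cells. The data hold 1 array per condition, so no test and no error can be given, and a difference between the cultures cannot be told apart from an effect of the compound.

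The pathway works in steps. The ends of a break are first trimmed to leave a 3′ strand, BRCA1 and its partners then prepare that strand, and further factors carry it into the matching sister sequence. The joined molecules are at the end taken apart by a helicase complex or cut by nucleases. In the Fanconi branch, a core complex attaches ubiquitin to a pair of proteins, FANCI and FANCD2, at a fork stalled by a cross-link, and the repair then passes to the recombination proteins. Sister copies exist only after replication, and many of these genes are known to be transcribed most in S and G2 phase.

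The values are log2 intensities, and a difference is the log2 value of the LXR623 array minus that of the DMSO array, so that 0.585 corresponds to 1.5-fold. The median of all deposited values was 4.42, and the 12279 probe sets that reached it in at least 1 of the arrays counted as measured. All 31 genes found were measured, and in each of them both values lay above that level, so the filter removed none. Intensities of different probe sets were not compared with each other. The median over all measured probe sets was -0.02. Among the colon epithelial markers, EPCAM was at 10.15 with DMSO and 10.21 with LXR623, KRT18 at 9.72 and 9.66, KRT19 at 10.58 and 10.90, CDH1 at 8.23 and 8.36, and CDX2 at 6.07 and 6.01. KRT8 was the exception, from 5.63 with DMSO to 7.14 with LXR623, a difference of 1.50. The markers VIL1, LGR5, KRT20, CDX1 and GPA33 were not measured. Of 6 mesenchymal markers 4 were measured, with differences of -0.35 for ZEB1, -0.10 for FN1, 0.02 for VIM and 0.12 for COL1A1. Of 4 leukocyte markers found 1 was measured, CD68, a lysosomal protein, at 6.56 and 7.12, and of 6 endothelial and neural or glial markers 0 were. The part of KRT8 and CD68 in the results below was not tested.

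Most homologous recombination and Fanconi genes were lower in the LXR623 array. Of 31 genes, 14 were at least 1.5-fold lower, or 45.2%, against 5.78% of all measured probe sets. At least 1.5-fold higher were 0 of 31, against 6.3% of all measured probe sets. The median difference of the 31 genes was -0.58, and the differences ran from -1.21 for EXO1 to 0.34 for MUS81. A difference below 0 was found in 26 of 31 genes, or 83.9%, against 51.7% of measured probe sets. The 5 genes above 0 were RMI2, MRE11, RAD50, NBN and MUS81.

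**Figure D1:**
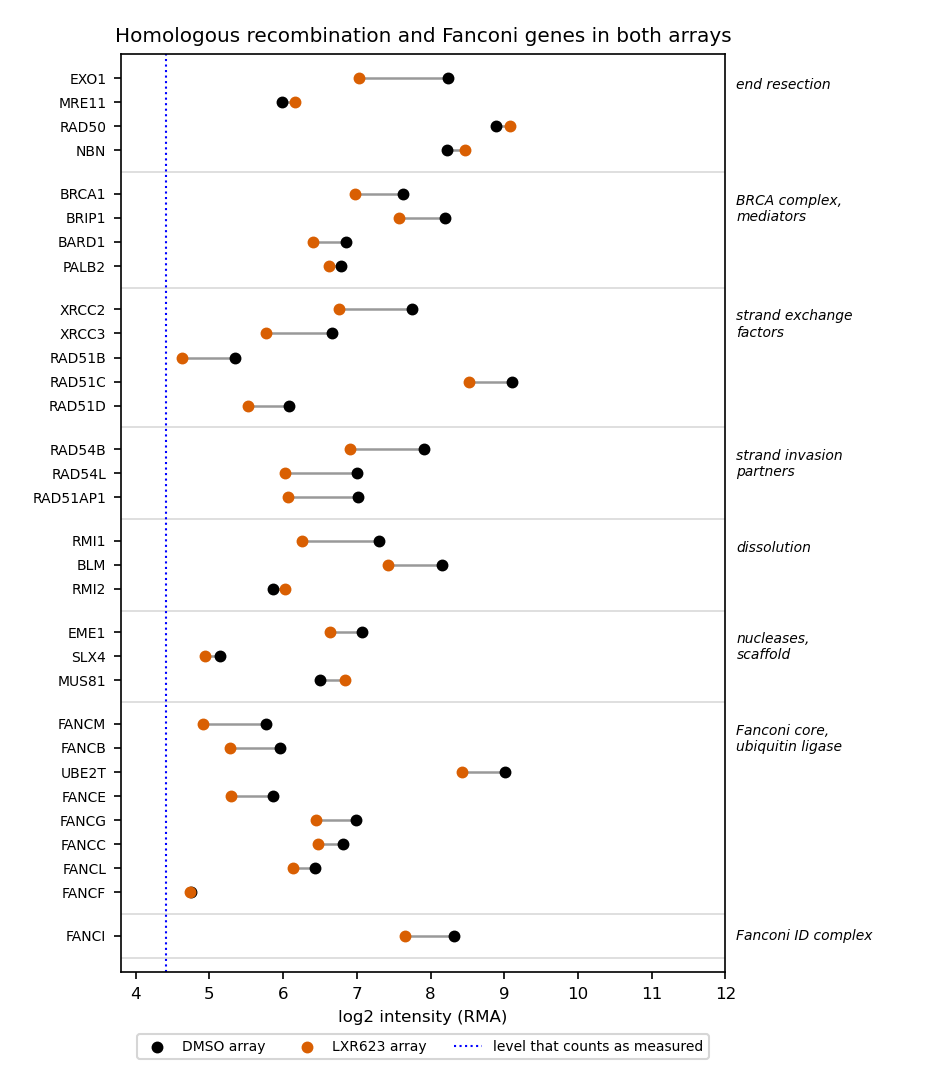
Each row is a gene, with its log2 intensity on the horizontal axis (black for DMSO, orange for LXR623), grouped by role, and the dotted line is the level that counts as measured, 4.42. The orange point lies to the left of the black point in 26 of 31 genes, and there is 1 array per condition.

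Before the values are given by role, the stretches of DNA just before the start of some of these genes are shown, since most of the genes were lower together. The sequences are from RefSeq on GRCh38.p14, where 27 of the 31 genes have an entry, and each is the 120 bases that end just before the annotated start, written 5′ to 3′ along the gene. EXO1, RMI1, XRCC2 and RAD54L have the largest negative differences among the genes with an entry. RAD51AP1, BLM and RAD50 were added after their values were seen, the first pair because they hold an E2F word and RAD50 as a gene that was not lower. FANCL and FANCC, which also hold an E2F word but were less than 1.5-fold lower, are not shown. Capitals mark words that were searched for on both strands, which are CCAAT, bound by NF-Y, the words TTTGGCGC, TTTCCCGC and TTCCCGCC of the E2F type, and TTTGAA, the cell cycle homology region (CHR). On the opposite strand CCAAT reads ATTGG and TTCCCGCC reads GGCGGGAA. The words TTTCCCGC and TTCCCGCC can overlap.
EXO1, chr1:241848084-241848203, plus strand: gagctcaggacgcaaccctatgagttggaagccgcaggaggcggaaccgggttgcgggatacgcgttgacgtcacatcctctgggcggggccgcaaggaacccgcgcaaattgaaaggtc
RMI1, chr9:83980239-83980358, plus strand: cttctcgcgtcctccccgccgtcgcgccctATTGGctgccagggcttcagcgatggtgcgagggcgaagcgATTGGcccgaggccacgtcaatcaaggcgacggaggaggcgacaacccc
XRCC2, chr7:152676142-152676261, minus strand: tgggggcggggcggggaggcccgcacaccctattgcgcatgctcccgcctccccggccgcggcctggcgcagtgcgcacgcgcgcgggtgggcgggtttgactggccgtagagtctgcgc
RAD54L, chr1:46247568-46247687, plus strand: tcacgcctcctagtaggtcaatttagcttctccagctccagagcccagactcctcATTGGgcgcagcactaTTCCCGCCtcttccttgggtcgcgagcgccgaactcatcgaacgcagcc
RAD51AP1, chr12:4538770-4538889, plus strand: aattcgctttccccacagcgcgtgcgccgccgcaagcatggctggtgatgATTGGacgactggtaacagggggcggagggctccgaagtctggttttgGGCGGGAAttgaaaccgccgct
BLM, chr15:90717226-90717345, plus strand: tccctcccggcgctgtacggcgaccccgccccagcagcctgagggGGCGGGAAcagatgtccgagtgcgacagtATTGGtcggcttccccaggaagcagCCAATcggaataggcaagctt
RAD50, chr5:132556857-132556976, plus strand: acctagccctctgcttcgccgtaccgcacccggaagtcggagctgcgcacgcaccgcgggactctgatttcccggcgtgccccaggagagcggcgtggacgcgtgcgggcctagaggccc

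Over the 250 bases before the start, CCAAT was found in 12 of 27 genes. The share among all 27305 promoters of the same length was 33.0%, and it was 35.3% among the 9253 promoters of measured genes. Of the 12 genes at least 1.5-fold lower that have an entry, 7 held CCAAT, and of the 15 others 5 did. Those 5 were UBE2T, PALB2, FANCF, MRE11 and MUS81, of which MRE11 and MUS81 were above 0. XRCC3, a factor of the strand exchange step, held 5 copies, and BLM and BRIP1, both helicases, held 3 each. RMI1, FANCM, UBE2T, FANCF and MRE11 held 2 each, and RAD51AP1, RAD54L, PALB2 and MUS81 held 1 each. Copies were not counted over all promoters. TTCCCGCC was found in 4 genes, RAD54L, RAD51AP1, BLM and FANCL, against 2.77% of all promoters and 4.81% of those of measured genes. TTTCCCGC was found in FANCC, TTTGGCGC in 0 of 27 genes, and TTTGAA in BRIP1, FANCC and UBE2T. Among all promoters TTTCCCGC was found in 1.42%, TTTGGCGC in 0.553% and TTTGAA in 13.6%, and among those of measured genes in 2.37%, 0.908% and 8.12%. The 3 genes that held both TTCCCGCC and CCAAT, RAD54L, RAD51AP1 and BLM, were each at least 1.5-fold lower, and both words together were found in 0.967% of all promoters and in 1.87% of those of measured genes. This pairing was not part of the plan. FANCL, with TTCCCGCC and no CCAAT, had -0.30. EXO1 and XRCC2, with differences of -1.21 and -0.997, held none of the words in this window. The median difference was -0.74 for the 5 genes with any E2F word and -0.57 for the 22 without. For CCAAT the medians were -0.68 with and -0.56 without the word, and for TTTGAA they were -0.58 in both. FANCC, which alone held TTTCCCGC, had -0.33, against a median of -0.58 of the genes without it. A match is a description of the letters and does not show that a factor binds there. The part of these words in the differences was not tested.

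**Figure D2:**
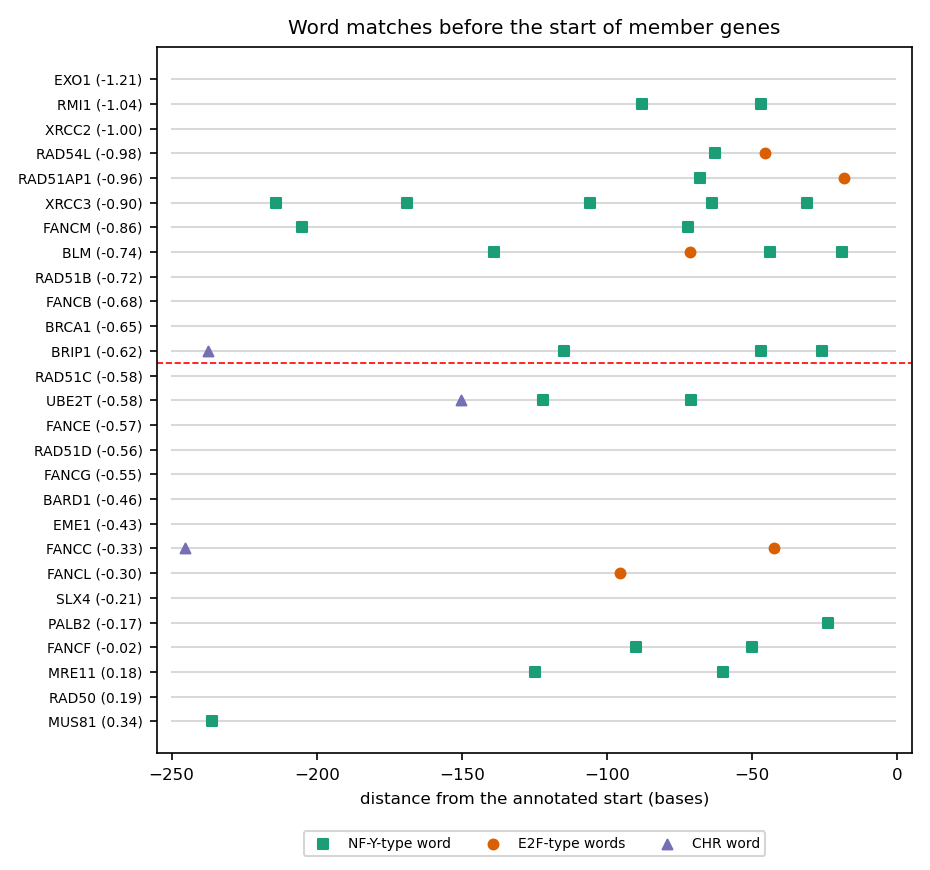
Rows are the 27 genes with a promoter entry, ordered by their log2 difference (in parentheses), and marks show the distance of each word match from the annotated start in bases, with the genes at least 1.5-fold lower above the dashed line. CCAAT (squares, named NF-Y-type) was found in 7 of 12 genes above the line and in 5 of 15 below it, and E2F-type words (circles) in 3 and 2.

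End resection held the largest difference of the list and also most of the genes that were not lower. EXO1, the exonuclease that extends the single-stranded tail over long distances, had a log2 intensity of 8.23 with DMSO and 7.03 with LXR623. This difference of -1.21, or 2.31-fold lower, ranked 31 from the lowest among 12279 measured probe sets. The complex that recognizes the break and starts the trimming consists of MRE11, the nuclease, RAD50, the ATPase that holds the ends, and NBN, which recruits the ATM kinase. MRE11 was at 5.98 with DMSO and 6.16 with LXR623. RAD50 was at 8.89 and 9.08. NBN was at 8.23 and 8.46. These 3 subunits thus lay slightly higher in the LXR623 array, by 0.18 to 0.23, and none passed 1.5-fold.

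Among the mediators that act on the trimmed end, BRCA1 and BRIP1 were past 1.5-fold. BRCA1, a ubiquitin ligase and scaffold, was at 7.62 with DMSO and 6.97 with LXR623, a difference of -0.65. BARD1, the obligate partner of BRCA1 in the ligase, was at 6.86 and 6.40, a difference of -0.46. BRIP1, a helicase that binds the C terminus of BRCA1, was at 8.20 and 7.58, a difference of -0.62. PALB2 links BRCA1 to BRCA2, and its difference was the smallest of these genes. With 6.79 and 6.62 its difference was -0.17, which ranked 4117 from the lowest of 12279 measured probe sets.

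RAD51B, RAD51C, RAD51D, XRCC2 and XRCC3, which assist the exchange of strands, were all lower, with 3 of 5 past 1.5-fold and a median difference of -0.72. Of all measured probe sets 5.78% were past 1.5-fold on the lower side. RAD51C forms a complex with XRCC3 and another with RAD51B, RAD51D and XRCC2. XRCC2 was at 7.75 with DMSO and 6.76 with LXR623, a difference of -0.997. XRCC3 was at 6.67 and 5.77, a difference of -0.90. The partner that both complexes share, RAD51C, was at 9.10 and 8.52, and with -0.580 it lay just short of 1.5-fold. RAD51B was at 5.35 and 4.63, a difference of -0.72, and its LXR623 value was near the level that counts as measured. RAD51D was at 6.08 and 5.52, a difference of -0.56.

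The helpers of strand invasion had the most even differences of the roles with over 1 gene, from -1.003 to -0.955 over 3 genes. RAD54L, a motor protein that drives strand invasion, was at 7.01 with DMSO and 6.03 with LXR623. RAD54B, a related motor protein, was at 7.91 and 6.91. RAD51AP1, which stimulates the joining of strands, was at 7.02 and 6.06. These genes ranked 100, 90 and 114 from the lowest among the measured probe sets.

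Genes of the complex that dissolves joined molecules lay on both sides of 0. BLM, its helicase, was at 8.16 with DMSO and 7.43 with LXR623, a difference of -0.74. RMI1, which stimulates the topoisomerase of the complex, was at 7.29 and 6.26, and its difference of -1.04 was the lowest of the list after EXO1. RMI2, which binds RMI1, was at 5.86 and 6.03, a difference of 0.17, on the other side of 0 but within 1.5-fold. The topoisomerase itself, TOP3A, which is not a member of the list, was at 7.45 and 7.28. Proteins that cut the joined molecules stayed within 1.5-fold. EME1, a partner of MUS81 in a nuclease, was at 7.06 and 6.63. MUS81 itself was at 6.50 and 6.84, with the highest difference of the list, 0.34. So the subunits of this nuclease lay on opposite sides of 0, with EME1 at -0.43, and each within 1.5-fold. With 1 array per condition, a difference between subunits was not tested. SLX4, the scaffold that holds several nucleases, was at 5.15 and 4.94, a difference of -0.21.

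All 8 measured genes of the Fanconi core and its ubiquitin-conjugating enzyme were below 0, with a median difference of -0.56. Past 1.5-fold were 2, or 25%, against 5.78% of all measured probe sets. FANCM, the motor protein that anchors the core complex on DNA, was at 5.77 with DMSO and 4.91 with LXR623, a difference of -0.86. FANCB, which forms the catalytic part of the complex with FANCL, was at 5.95 and 5.28, a difference of -0.68. FANCL, the ubiquitin ligase subunit, was at 6.43 and 6.13. The difference of FANCL, -0.30, was smaller than that of UBE2T, the enzyme that hands it ubiquitin. UBE2T was at 9.01 and 8.43, a difference of -0.576, just short of 1.5-fold. FANCE, which contacts FANCD2, was at 5.86 and 5.29. FANCG was at 7.00 and 6.44, and FANCC at 6.81 and 6.48, so that these 3 subunits lay between FANCM and FANCL in their differences. FANCF, the adaptor of the core, was at 4.75 and 4.73, and its difference of -0.02, the same as the median of all measured probe sets, turned to 0.002 when differences were centred on that median. FANCI, a target of the ligase, was at 8.31 and 7.66, a difference of -0.66 and past 1.5-fold.

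At the threshold of 1.5-fold, BRIP1 with -0.62 lay just inside, and RAD51C with -0.580 and UBE2T with -0.576 lay just outside. Spread depends on brightness, so each gene was also set beside the measured probe sets of like mean intensity, in 20 bins. In 9 of 31 genes the difference was below the 2.5th percentile of its bin, against 2.61% of all measured probe sets. These were EXO1, RMI1, RAD54B, XRCC2, RAD54L, RAD51AP1, XRCC3, FANCM and BLM. For EXO1 the 2.5th percentile of its bin was -0.72, and for RMI1 it was -0.74. BRCA1, BRIP1, FANCI, FANCB and RAD51B passed 1.5-fold and lay inside the central range of their bins. At 2-fold, 3 genes were lower, EXO1, RMI1 and RAD54B, or 9.68%, against 0.741% of measured probe sets. RAD54B was short of 2-fold after quantile normalization, centring or removal of the trend with brightness, and RMI1 after the last of these, which left 2, 2 and 1 genes. Among the 23 genes with a mean intensity of at least 6 the count past 1.5-fold was 11, against 4.99% of the measured probe sets of that brightness. Among the 8 dimmer genes it was 3, against 5.78% of measured probe sets of any brightness.

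**Figure D3:**
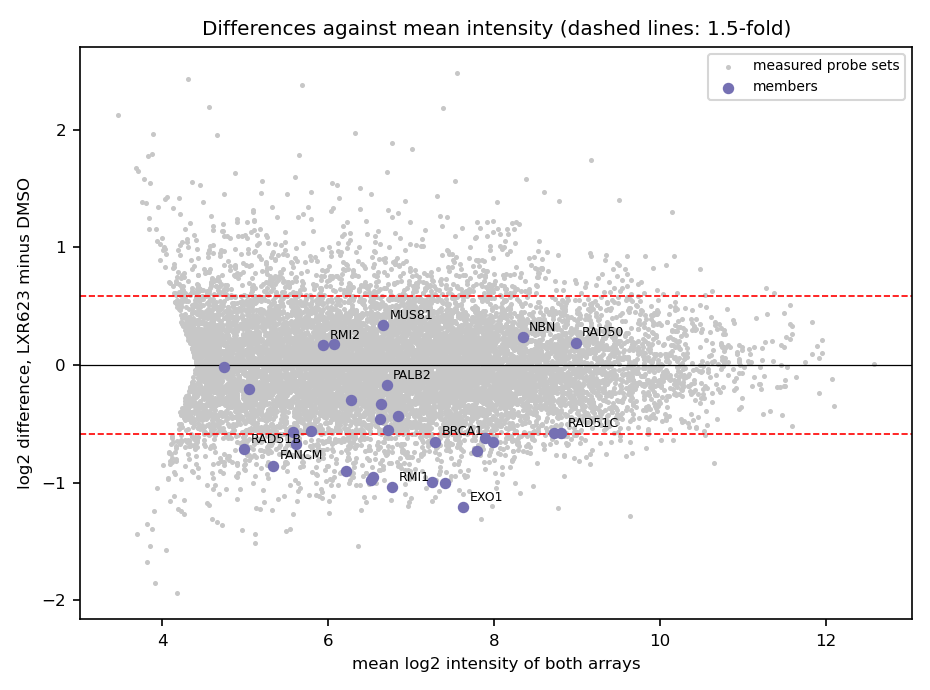
Each grey point is a measured probe set, with the mean log2 intensity of both arrays on the horizontal axis and the log2 difference, LXR623 minus DMSO, on the vertical axis, and purple points are the 31 genes, some of them named. EXO1 at -1.21 is the lowest purple point and MUS81 at 0.34 the highest, and dashed lines mark 1.5-fold.

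Other genes of recombination and the Fanconi pathway, from a list outside the 35, were lower less uniformly. The list also holds genes of related steps, such as POLQ, TOPBP1 and ATRIP. Of 49 measured, 10 lay past 1.5-fold on the lower side, or 20.4%, against 5.78% of all measured probe sets. On the higher side were 0, and the median difference was -0.25. POLQ, the polymerase that joins resected ends by short homologies, was at 7.48 with DMSO and 6.38 with LXR623. DNA2, a nuclease of long-range resection like EXO1, was at 6.76 and 5.78. TONSL and MMS22L, which together promote recombination at forks, had differences of -0.70 and -0.94. PSMC3IP, a stimulator of strand invasion, had -0.91, and RFWD3, a ubiquitin ligase of the Fanconi pathway, -0.77. The other 4 past 1.5-fold were TOPBP1 and ATRIP, which act in ATR signalling, with -0.71 each, MCM8, a helicase, with -0.63 and CENPX, a partner of FANCM, with -0.64. RPA1 and RPA2, which coat the trimmed strand, had -0.32 and -0.44. ATM, the kinase that responds to breaks, had 0.37 and ATR, the kinase of stalled forks, -0.53. Subunits of the BRCA1-A complex, which binds ubiquitin at breaks, lay mostly above 0, with BABAM2 at 0.28, ABRAXAS1 at 0.23, UIMC1 at 0.11, BABAM1 at 0.03 and BRCC3 at -0.19.

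The remaining repair pathways had medians nearer to that of all measured probe sets than the 31 genes had. For mismatch repair it was close to the -0.25 of the other recombination and Fanconi genes. Non-homologous end joining, which seals breaks without a template, had 0 of 15 measured genes at least 1.5-fold lower and 1 higher, APLF with 0.96, and a median of -0.18. Within it XRCC5 and XRCC6, which form the Ku ring, had -0.21 and -0.26. RIF1, which holds back resection, had -0.57, within 1.5-fold. Mismatch repair had a median of -0.22 over 6 genes, with MSH6 past 1.5-fold at -0.83. The median was -0.17 for 18 genes of base excision repair, 0.01 for 11 of translesion synthesis and 0.12 for 17 of nucleotide excision repair. Each of these lists had 1 or fewer genes lower and 1 or fewer higher. Among all measured probe sets 5.78% were at least 1.5-fold lower and 6.3% higher. The shares were 5.56% and 5.56% for base excision repair, 0% and 6.67% for end joining, and 0% and 5.88% for nucleotide excision repair. They were 9.09% and 0% for translesion synthesis and 16.7% and 0% for mismatch repair, from 1 gene each. PARP2, which signals strand breaks, was lower by a difference of -0.72, and RAD18, a ubiquitin ligase of damage bypass, of -0.76. NEIL1, a DNA glycosylase, was higher by 0.85 and CETN2, which binds XPC, by 0.73. XPC and DDB2, which detect damage in nucleotide excision repair and are known targets of p53, had 0.46 and 0.45. Below 0 were 6 of 6 mismatch repair, 10 of 15 end joining and 13 of 18 base excision repair genes, against 51.7% of measured probe sets. For translesion synthesis it was 5 of 11 genes and for nucleotide excision repair 5 of 17.

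Genes of the replication fork and of its licensing were the list most like the recombination genes. All 31 were below 0 and the median was -0.66. At least 1.5-fold lower were 18, or 58.1%, against 5.78% of all measured probe sets. MCM10, which helps to activate the replicative helicase, was at 9.38 with DMSO and 8.17 with LXR623, and CLSPN, which relays the ATR signal to CHEK1, was at 8.57 and 7.37. Their differences, -1.21 and -1.20, were the same size as that of EXO1. Mitosis and proliferation genes had a median of -0.42. Past 1.5-fold on the lower side were 4 of 19, or 21.1%, and on the higher side 0. The 4 were CDC20, CDK1, CCNA2 and BUB1B with -0.75, -0.69, -0.66 and -0.65. MKI67, the common marker of cycling cells, had -0.53. The p53 targets lay on the other side, with a median of 0.47 over 11 genes. Past 1.5-fold on the higher side were 4, or 36.4%, against 6.3% of all measured probe sets. These were BBC3, which promotes apoptosis, with 0.91, CDKN1A, the inhibitor of cyclin-dependent kinases, with 0.89, RRM2B, a ribonucleotide reductase subunit, with 0.71 and TP53I3 with 0.65. The other p53 targets ran from -0.02 for BAX to 0.52 for GADD45A. In RNA from whole cultures, fewer cells in S and G2 phase and less RNA of these genes per cell cannot be told apart. The part of the replication and mitosis genes in the result for recombination genes was not tested.

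**Figure D4:**
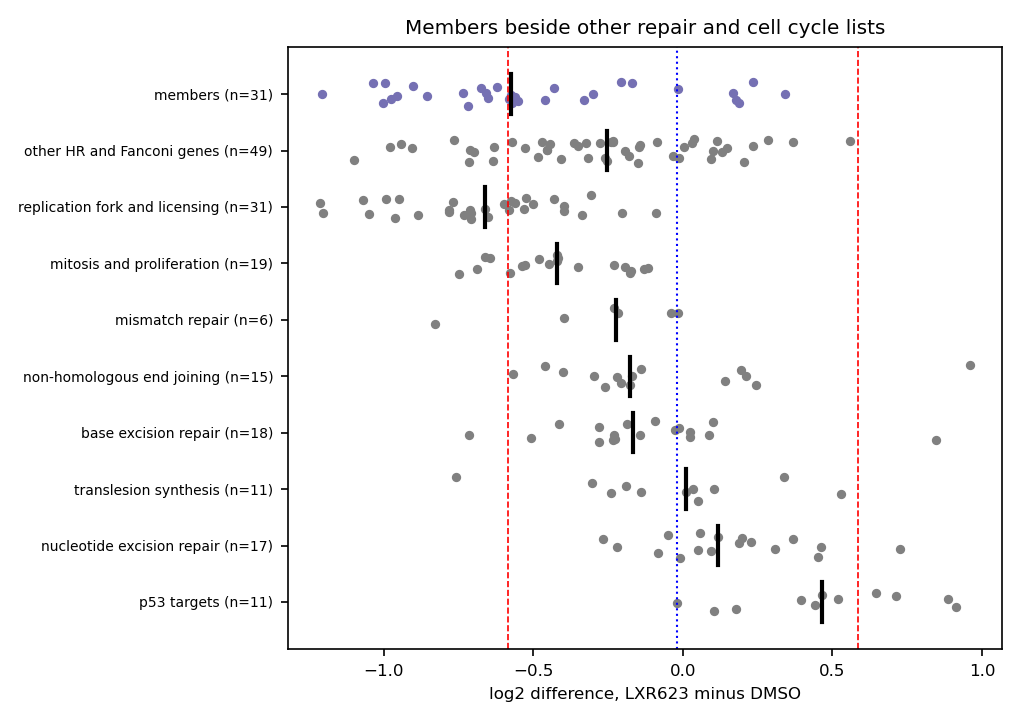
Each point is a measured gene, with its log2 difference, LXR623 minus DMSO, on the horizontal axis, and rows are lists with the number of measured genes in parentheses. Black bars are list medians, the dotted line is the median of all measured probe sets, -0.02, and dashed lines are 1.5-fold, with the recombination and Fanconi genes (purple, median -0.58) between the replication list at -0.66 and the mitosis list at -0.42.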

How the data were processed

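Total RNA of 2 HCT116 cultures was labelled with biotin and hybridized to Affymetrix arrays. The authors summarized the arrays by RMA and deposited log2 intensities. According to the submitters' processing notes, affy 1.36.1 was run in R 2.15.1. RMA equalizes the distributions of the arrays, so a shift of all genes together would not show. The genome build is not given in the sources used here. Of 23786 probe sets, 22458 carry 1 gene symbol in the platform annotation, 1328 are unnamed here, and 0 symbols fall on more than 1 probe set.

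No test was possible between 2 arrays of 1 sample each. The difference of log2 values was taken per probe set, and counts used 1.5-fold among probe sets whose higher value reached the table median. The genes and lists were chosen with earlier results of these data known. Every gene of the list was named. From other lists, genes past 1.5-fold or among the 4 of largest difference could be named, not all of which were. RPA1, RPA2, ATM, ATR, the BRCA1-A subunits, the Ku genes, MKI67, TOP3A, XPC, DDB2, BAX, GADD45A and the markers of cell types were chosen after their values were seen. As alternatives, the filter was left out or set at the 25th percentile, and the other settings were quantile normalization, centring, removal of a lowess trend with a fraction of 0.3, thresholds of 2-fold and 1.25-fold and the mean. The comparison with probe sets of like intensity was added after seeing the data. The procedure was tested on simulated data with shifts of 2-fold and a random spread smaller than that of these measured probe sets. That test does not bear on calls near 1.5-fold. Python 3.11.15, numpy 2.4.6, pandas 2.3.3, statsmodels 0.14.6 and matplotlib 3.10.9 were used. The number of arrays limits the precision.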

Additional observations from a re-analysis of the deposited data

How the results depend on the processing

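No paired analysis was possible because each condition has a lone array. The count of 14 recombination and Fanconi genes at least 1.5-fold lower and of 0 higher remained 14 and 0 without a filter, with a filter at the 25th percentile, and after quantile normalization, centring or removal of the lowess trend, and each of the 31 genes kept its side of 1.5-fold in the last 3. The median difference ran from -0.58 to -0.55 under these settings, and the mean was -0.50. Leaving out or loosening the filter could not change the counts or the median, since all 31 genes passed the main filter. Centring took only the median of all measured probe sets, -0.02, from each difference. A 2-fold threshold left 3 genes lower, and the lower alternative threshold gave 22 lower and 1 higher, MUS81, against 19.2% and 18.1% of all measured probe sets, since a threshold sets how many genes pass. The 26 genes below 0 became 25 when centred, as FANCF crossed 0, and remained 26 in number under the other scalings. The rule of like intensity, added after seeing the data, gave 9 lower. Dim signals limit what can be read for FANCF, SLX4, RAD51B and FANCM, whose LXR623 values lie nearest to the level that counts as measured.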
